A study of Mus musculus with 4 samples.

Results

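Fibroblast growth factor (FGF) signalling in female mouse embryonic stem cells (ESCs) was followed through 10 genes of the pathway. They are the ligand *Fgf4*, the receptor *Fgfr1*, the feedback inhibitors *Dusp6*, *Spry2*, *Spry4* and *Spred1*, the ETS transcription factors *Etv1*, *Etv4* and *Etv5*, and the immediate early factor *Egr1*. The genes were chosen by name, with earlier results of these data known. Of the 10, 9 have values among the 9936 gene names of the deposited tables. *Spry2* was not analysed here. RNA-Seq was performed on LF2 cells, a female ESC line of strain 129/J, which were kept on feeder cells and passaged without them before treatment. For 24 hr the cells received either PBS or L-ascorbic acid (AA, at 50 μg/ml), and either DMSO or GSK-J4 (at 10 μM), giving the conditions PBS+DMSO, PBS+GSK-J4, AA+DMSO and AA+GSK-J4. GSK-J4 is a small molecule that enters cells and blocks JmjC histone demethylases, PBS and DMSO are the vehicles, and AA is vitamin C, a cofactor that can raise the activity of these enzymes. There was 1 library per condition, so no difference has a replicate of its own and no p-value is given.

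In ESCs, Fgf4 is secreted by the cells themselves and binds FGF receptors, chiefly Fgfr1, together with heparan sulphate. The receptor activates Ras, Raf, Mek and the ERK kinases, a cascade known to prime ESCs for differentiation. ERK activity in turn raises transcription of its own inhibitors (Dusp, Sprouty and Spred proteins) and of the Etv factors, so the RNA of these genes is commonly read as an output of the pathway. ERK activity itself was not measured in these libraries.

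Start regions are shown for the genes that were lower in both GSK-J4 libraries under every processing setting tried, where the RefSeq promoter table (GRCm38.p6) has an entry. Of the 9 genes with values, 5 have an entry, and the windows of *Fgf4*, *Dusp6*, *Spred1* and *Etv1* are given as the 250 bases before the RefSeq start site. Capitals mark GC boxes (GGGCGG on either strand). *Fgf4* lies at chr7:144861136-144861385 (plus strand), *Dusp6* at chr10:99262981-99263230 (plus strand), *Spred1* at chr2:117120821-117121070 (plus strand) and *Etv1* at chr12:38779832-38780081 (plus strand).
Fgf4: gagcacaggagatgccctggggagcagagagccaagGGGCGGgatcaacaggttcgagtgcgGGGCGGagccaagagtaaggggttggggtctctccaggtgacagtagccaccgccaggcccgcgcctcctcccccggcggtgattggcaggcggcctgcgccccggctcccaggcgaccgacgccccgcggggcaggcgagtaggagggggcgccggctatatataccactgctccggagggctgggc
Dusp6: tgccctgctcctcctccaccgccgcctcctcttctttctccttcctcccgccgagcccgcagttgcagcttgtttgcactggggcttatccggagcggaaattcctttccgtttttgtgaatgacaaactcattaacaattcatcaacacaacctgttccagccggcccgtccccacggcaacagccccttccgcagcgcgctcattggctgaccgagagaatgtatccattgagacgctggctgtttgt
Spred1: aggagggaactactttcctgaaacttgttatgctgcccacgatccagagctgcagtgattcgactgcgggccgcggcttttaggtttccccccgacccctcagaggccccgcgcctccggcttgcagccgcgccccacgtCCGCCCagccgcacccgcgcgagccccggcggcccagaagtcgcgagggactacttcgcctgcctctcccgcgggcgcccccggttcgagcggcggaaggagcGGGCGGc
Etv1: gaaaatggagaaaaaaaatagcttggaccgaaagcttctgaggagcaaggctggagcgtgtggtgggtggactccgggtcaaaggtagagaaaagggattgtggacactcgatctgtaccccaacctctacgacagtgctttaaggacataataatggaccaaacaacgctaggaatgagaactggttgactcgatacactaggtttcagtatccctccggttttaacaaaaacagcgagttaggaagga

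Bases G and C made up 71.2% of the *Fgf4* window and 70.8% of the *Spred1* window, but 56.4% for *Dusp6* and 46.4% for *Etv1*. *Fgf4* holds 2 GC boxes, whose first bases lie at -214 and -188 from the start site, and *Spred1* holds 2, at -110 and -7. No GC box was found for *Dusp6* or *Etv1*, nor in the second window of *Etv1*, which is not shown. *Etv5*, the direction of which depended on the scaling, has 2 windows in the table, 1 with 3 GC boxes and 1 with none. Among 32851 windows of the same length, 32.7% hold a GC box. The ETS core CCGGAA, the CRE core TGACG, the AP-1 site TGANTCA and the CArG box were searched on both strands as well. They are in 12.0%, 17.8%, 6.75% and 1.47% of all windows, and none of them is in any window of the 5 genes. A match of letters is a description and not a binding site.

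FPKM, a count of fragments divided by exon length and by the mapped fragments of the library, is a level that can be set side by side between genes. In PBS+DMSO, *Etv5* was the highest of the 9 genes at an FPKM of 147, followed by *Fgf4* at 65.5 and *Spry4* at 21.4. *Dusp6* (15.0), *Spred1* (14.2), *Fgfr1* (12.5) and *Etv1* (9.01) stood close together, and *Egr1* (1.74) and *Etv4* (1.12) were near the minimum FPKM of 1 used here. With 1 library per condition there is no spread to separate neighbours in this order. *Etv5* and *Fgf4* were the most highly expressed of the 9 genes in each of the 4 libraries. In both GSK-J4 libraries *Fgfr1* followed, ahead of the inhibitors.

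**Figure D1:**
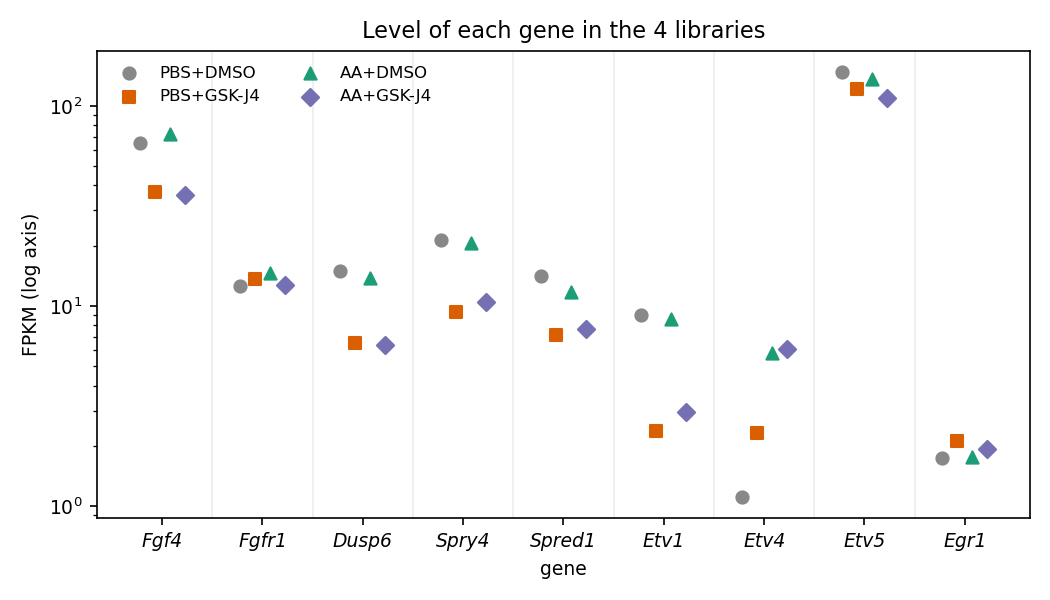
FPKM (log axis) of the 9 genes, with 1 point for each of the 4 libraries and no error bars, since each condition has 1 library. For *Fgf4*, *Dusp6*, *Spry4*, *Spred1*, *Etv1* and *Etv5* both GSK-J4 points lie below both DMSO points, though the direction of *Etv5* depended on the scaling. *Etv4* is lowest in PBS+DMSO, at 1.12.

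The log2 ratio is log2((GSK-J4 FPKM + 1)/(DMSO FPKM + 1)), and was taken where either library compared reached an FPKM of 1. The added 1 makes the change of weakly expressed genes look smaller than it is. All 9 genes pass this filter in each comparison. The GSK-J4 comparisons without and with AA share no library. Over 8972 genes, the difference between their ratios has an SD of 0.33, which corresponds to 0.23 for a single ratio and is called the repeat SD here. It holds any effect of AA as well as the error. It was 0.098 for genes expressed like *Fgf4* and 0.33 for genes expressed like *Egr1*.

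Without AA, GSK-J4 left 3 of the 9 genes at least 2-fold lower (*Dusp6*, *Spry4* and *Etv1*), where 3.50% of 9196 genes were at least 2-fold lower. None was at least 2-fold higher on this scale, against 4.96% of all genes, although the plain FPKM of *Etv4* was 2.08-fold higher. With AA, 2 of 9 were at least 2-fold lower (*Dusp6* and *Etv1*), against 3.38% of 9139 genes, and none was at least 2-fold higher, against 4.13%. The median log2 ratio of the 9 genes was -0.80 without AA, and that of all genes was -0.17. With AA, the medians were -0.56 and -0.16. Ratios were below 0 for 6 of 9 genes without AA and 7 of 9 with AA, compared with 63.0% and 62.2% of all genes. These counts depend on how the libraries are scaled to each other, which the sources used here do not give. FPKM summed over all genes was 360621 with DMSO and 275575 with GSK-J4, and in the libraries with AA 342327 and 271205. Dividing each library by its upper quartile moved the median of all genes to 0.07 in both comparisons. Scaling to the same total moved it to 0.16 without AA and 0.14 with AA. Under either scaling, or with ratios centred on the median of all genes, 1 of the 9 genes (*Etv1*) was at least 2-fold lower without AA, and 1 with AA. Of all genes, 1.71% were at least 2-fold lower without AA after centring, 1.36% after the upper quartile and 1.07% after scaling to the same total, and with AA 1.66%, 1.29% and 1.07%. Of the genes changed at least 2-fold in the whole table without AA, 58.6% were higher as deposited, 79.7% after centring, 84.4% after the upper quartile and 89.2% after scaling to the same total. With AA these shares were 55.0%, 77.1%, 82.2% and 86.3%.

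The ratios followed the level of expression over the whole table. Sorted into 10 groups of equal size by mean level (deciles), the median log2 ratio without AA ran from 0.30 in the lowest group to -0.59 in the highest. Each member was therefore also set beside the median of its own decile, a choice made after the data were seen. Genes within a decile differed among themselves, with an SD of their ratios of 0.47 to 0.66 without AA and 0.45 to 0.68 with AA.

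The ligand *Fgf4* (chr7:144861312-144865247 on mm10, the build named in the submitters' processing notes) had an FPKM of 65.5 with DMSO and 37.1 with GSK-J4, and in the presence of AA of 72.0 and 35.6. Values of the other genes are given in this order of libraries (PBS+DMSO, PBS+GSK-J4, AA+DMSO, AA+GSK-J4). Both GSK-J4 libraries were lower than both DMSO libraries, at 56.7% of DMSO without AA and 49.5% with AA. The log2 ratios were -0.80 and -0.99, just inside 2-fold on this scale. Genes of the same decile had medians of -0.46 and -0.41, so *Fgf4* lay 0.34 and 0.58 below them, more than the repeat SD of 0.098 in that decile. The ratios of the genes in that decile had an SD of 0.49 and 0.46, so *Fgf4* was not shown to stand apart from genes of its level.

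The receptor *Fgfr1* (chr8:25518767-25575765, 2 coding sequence groups summed) was nearly level, with an FPKM of 12.5, 13.7, 14.7 and 12.7. The log2 ratios were 0.11 and -0.19, and the latter turned to 0.05 with the upper quartile or the decile and to 0.12 with the same total. Part of its exons overlaps the gene *Gm16159* on the opposite strand, and the sources used here do not say that reads were counted by strand.

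*Dusp6* (chr10:99263149-99267484), a phosphatase that removes the activating phosphates from ERK, had an FPKM of 15.0, 6.54, 13.8 and 6.39. The GSK-J4 libraries were close to each other, at 43.6% and 46.3% of their DMSO libraries. The log2 ratios of -1.08 and -1.003 differed by 0.08, and stood below decile medians of -0.19 and -0.17.

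*Spry4* (chr18:38586293-38601682), a Sprouty protein that blocks signalling between the receptor and Raf, had an FPKM of 21.4, 9.35, 20.6 and 10.4. It was at 43.7% of DMSO without AA and 50.7% with AA, and the log2 ratios were -1.11 and -0.92. The 2-fold threshold lies between these values, which differ by 0.20. The SD of such a difference was 0.33 over all genes, and the repeat SD of a single ratio in its decile was 0.14. Its decile medians were -0.27 and -0.25.

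*Spred1* (chr2:117121624-117182262), a Sprouty-related protein that recruits neurofibromin to Ras, had an FPKM of 14.2, 7.17, 11.8 and 7.72. The GSK-J4 libraries were lower than the DMSO libraries, with log2 ratios of -0.89 and -0.56. The gap of 0.34 between these ratios was slightly larger than the SD over all genes, and the repeat SD of a single ratio in its decile was 0.18 without AA and 0.17 with AA. *Spred1* had the smallest reduction of the 3 inhibitors, and with AA it was at 65.3% of DMSO. Its decile medians were -0.19 and -0.17, and *Spred1* lay 0.71 and 0.39 below them. The ratios of the genes in that decile had an SD of 0.52 and 0.48. With AA, *Spred1* was therefore not shown to stand apart from genes of its level.

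*Etv1* (chr12:38780245-38868277) showed the largest difference of the 9 genes in both comparisons, except that with a pseudocount of 5 *Fgf4* had -0.92 and *Etv1* -0.78 with AA. Its FPKM was 9.01, 2.36, 8.60 and 2.94. The DMSO libraries were close to each other and the GSK-J4 libraries were at 26.2% and 34.2% of them. The log2 ratios were -1.57 and -1.29. The medians of its decile were -0.0042 and -0.0080, and the repeat SD there was 0.26.

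*Etv5* (chr16:22381300-22439620), a factor of the same ETS subfamily, had an FPKM of 147, 121, 136 and 109. It was at 82.0% and 80.1% of DMSO with GSK-J4, and the log2 ratios of -0.28 and -0.32 turned to 0.10 and 0.02 when libraries were scaled to the same total. Genes of its decile, the highest, had medians of -0.59 and -0.53, and relative to these *Etv5* was higher by 0.30 and 0.22. In both comparisons the ratio of *Etv1* was below that of *Etv5* by more than the repeat SD of either decile.

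*Etv4* (chr11:101769716-101785347), the third of the subfamily, had an FPKM of 1.12, 2.32, 5.83 and 6.07. It is the one gene of the 9 whose main difference follows AA, with both AA libraries above both PBS libraries. The log2 ratios with GSK-J4 were 0.65 without AA and 0.05 with AA. The difference of -0.60 between them was the largest among the 9 genes in size, but the level in PBS+DMSO is low. The repeat SD of a single ratio at this level was 0.33, and a difference between ratios varies more than a single ratio.

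The FPKM of the 3 ETS genes summed to 158, 126, 151 and 118. *Etv5* made up 93.6%, 96.3%, 90.4% and 92.4% of the sum. The share of *Etv1* was 5.72% and 5.71% in the DMSO libraries and 1.88% and 2.49% in the GSK-J4 libraries. The share of *Etv4* was 0.709%, 1.85%, 3.87% and 5.14%, with the AA libraries above the PBS libraries. Shares within a library do not depend on how libraries are scaled.

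*Egr1* (chr18:34861276-34864969), a zinc finger factor transcribed within minutes of ERK activation in many cells, had an FPKM of 1.74, 2.11, 1.76 and 1.94. All 4 libraries were alike at this low level. The log2 ratios of 0.18 without AA and 0.09 with AA were smaller than the repeat SD of 0.33 for such genes, and the latter became -0.01 when centred on the decile.

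**Figure D2:**
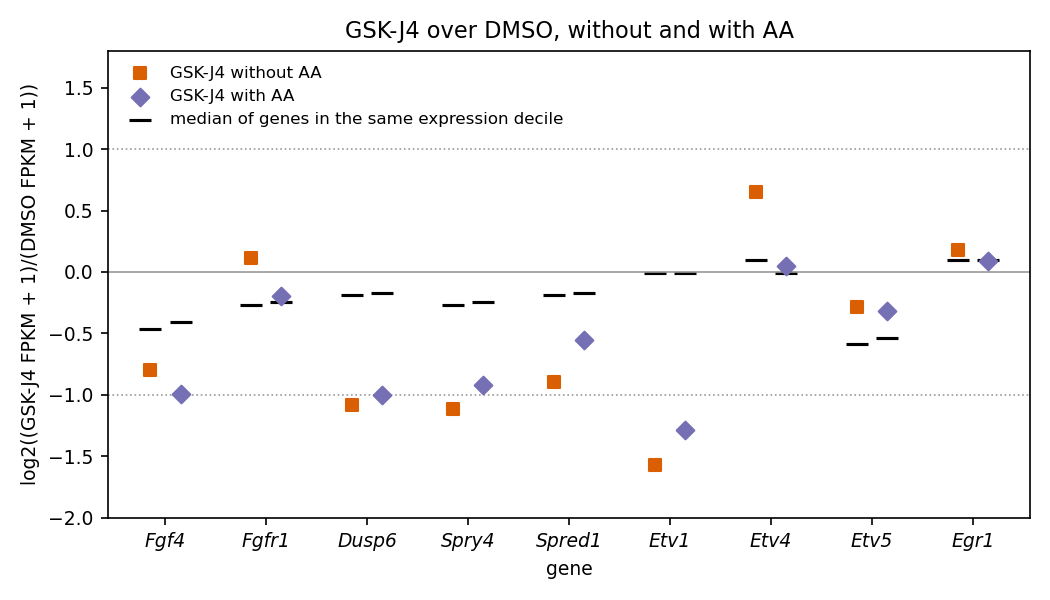
Log2 ratio of GSK-J4 over DMSO for the 9 genes without AA (squares) and with AA (diamonds), 1 library against 1. Short bars give the median of all genes in the same expression decile and dotted lines mark 2-fold; *Etv1* lies farthest below its bar (-1.57 and -1.29), while *Etv5* (-0.28 and -0.32, above 0 after scaling to the same total) lies above its bar.

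The processing settings moved the sizes of these ratios. *Fgf4*, *Dusp6*, *Spry4*, *Spred1* and *Etv1* were lower with GSK-J4 under all 11 settings in both comparisons. Without AA, the ratio of *Etv1* ran from -1.89 to -0.93, that of *Dusp6* from -1.18 to -0.73, that of *Spry4* from -1.19 to -0.75, that of *Spred1* from -0.97 to -0.54 and that of *Fgf4* from -0.82 to -0.34. With AA, the ratio closest to 0 among these genes was -0.25, for *Spred1*. *Etv5* changed sign under 2 settings in each comparison.

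**Figure D3:**
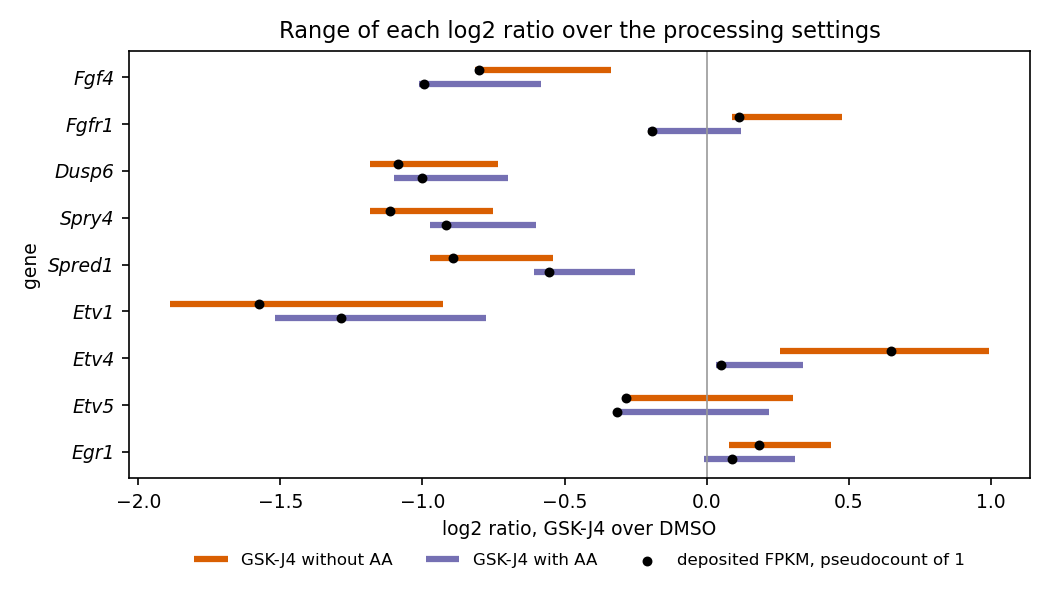
Lowest to highest log2 ratio of each gene over the 11 settings, without AA (upper bar) and with AA (lower bar); dots show the ratios as deposited with a pseudocount of 1. The bars of *Fgf4*, *Dusp6*, *Spry4*, *Spred1* and *Etv1* stay below 0, whereas those of *Etv5*, of *Fgfr1* with AA and of *Egr1* with AA cross it.

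The rest of the pathway was described with 5 lists of 130 gene names, of which 89 have a value. Among FGF ligands, 8 of 19 have a value and 7 passed the filter in each comparison. With GSK-J4, 2 of these were at least 2-fold lower and none higher, both without and with AA, and the medians of the list were -0.25 and -0.62. Both medians are the ratios of *Fgf3*, which had an FPKM of 1.03, 0.707, 1.13 and 0.379. *Fgf3* passed the filter only through the DMSO libraries, so the filter fixed its ratios as below 0. *Fgf7* passed only through the GSK-J4 libraries, so its ratios were fixed as above 0. Of all genes, 3.50% and 3.38% were at least 2-fold lower and 4.96% and 4.13% higher, and the medians were -0.17 and -0.16. The ligands at least 2-fold lower were *Fgf15* and *Fgf17*. *Fgf15*, a ligand known for its endocrine role in the intestine and expressed in early embryos, had an FPKM of 12.0, 3.15, 7.20 and 0.948, with log2 ratios of -1.64 and -2.07. *Fgf17*, a ligand of the Fgf8 subfamily, had an FPKM of 15.8, 3.94, 13.7 and 3.12, with log2 ratios of -1.77 and -1.84. Thus the 3 ligands with the highest levels in PBS+DMSO (*Fgf4*, *Fgf17* and *Fgf15*) were all lower in both GSK-J4 libraries. The ligands left had an FPKM of at most 6.18 in any library.

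Of 24 receptor, co-receptor and heparan sulphate genes, 15 have a value. Of the 12 that passed without AA, 1 was at least 2-fold higher and none lower, and of 13 with AA, 1 was higher and none lower. Their medians were 0.14 and 0.05, beside -0.17 and -0.16 for all genes. Of all genes, 4.96% and 4.13% were at least 2-fold higher and 3.50% and 3.38% lower. *Fgfr3*, whose ratio of 0.05 is the median with AA, did not pass without AA, so the medians cover different genes. The gene that was higher is *Sdc4*, a syndecan that carries heparan sulphate at the cell surface, with an FPKM of 18.5, 67.6, 17.2 and 60.2 and log2 ratios of 1.82 and 1.75. *Hs6st1*, a heparan sulphate sulphotransferase, had an FPKM of 27.1, 24.6, 28.5 and 26.0, and its log2 ratio of -0.13 in each comparison became positive under 4 settings.

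The Ras-ERK cascade has 21 of 27 genes with a value, and all 21 passed. Ratios were below 0 for 17 of 21 without AA and 15 of 21 with AA, where 63.0% and 62.2% of all genes were, and the medians of -0.36 and -0.20 stand beside -0.17 and -0.16 for all genes. *Mapk3*, an ERK kinase, had an FPKM of 59.0, 35.9, 57.1 and 38.4 and log2 ratios of -0.70 and -0.56. Its decile medians were -0.46 and -0.41. *Mknk1*, a kinase that ERK activates, was the only gene of the cascade past 2-fold, higher without AA (log2 ratio 1.04), and it had 0.72 with AA. It was named after its values were seen.

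As a list, negative feedback regulators did not fall as *Dusp6*, *Spry4* and *Spred1* did, but with AA *Pebp1* and *Dusp9* had lower ratios than *Spred1*. Of 30 listed, 23 have a value. Without AA, 21 passed, of which 2 were at least 2-fold lower (*Dusp6* and *Spry4*) and 2 higher (*Dusp1* and *Dusp2*). With AA, 20 passed, of which 1 was lower (*Dusp6*) and 1 higher (*Paqr3*, listed at 0 in AA+DMSO). *Dusp2* had an FPKM of 0.273, 1.86, 0.237 and 1.18, so it passed the filter only through the GSK-J4 libraries in which it was high. The same held for *Cbl* without AA and *Paqr3* with AA, so the filter fixed these ratios as above 0. The medians of the list were 0.02 and 0.00, beside -0.17 and -0.16 for all genes. At least 2-fold lower were 3.50% and 3.38% of all genes, and 4.96% and 4.13% were higher. Without the 3 members the list medians were 0.16 and 0.17. Above 0 were 11 of 18 and 10 of 17 genes, where 63.0% and 62.2% of all genes were below 0. Ratios followed the level of expression, and the list was not set beside genes of the same level. *Dusp1*, a nuclear phosphatase of several MAP kinases and an immediate early gene, had an FPKM of 12.1, 29.1, 13.4 and 27.1 and log2 ratios of 1.19 and 0.97. It was chosen after its values were seen. *Pebp1*, which binds Raf, had an FPKM of 268, 168, 256 and 155 and log2 ratios of -0.67 and -0.72. *Dusp9*, an X-linked phosphatase of ERK, had an FPKM of 91.3, 65.9, 85.1 and 52.9 and log2 ratios of -0.46 and -0.68, the former positive (0.12) under the expression decile.

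ERK-responsive transcription factors and other early response genes divided in direction. Of 30 listed, 22 have a value and 22 passed without AA, of which 3 were at least 2-fold higher and 2 lower. With AA, 20 passed, of which 3 were higher and 3 lower, and the medians were 0.17 and -0.05. All genes had medians of -0.17 and -0.16, with 4.96% and 4.13% at least 2-fold higher and 3.50% and 3.38% lower. The listed genes higher in both comparisons were *Fos*, *Fosl1* and *Jun*, the products of which are components of AP-1. *Fos* and *Fosl1* were below an FPKM of 1 in both DMSO libraries, so they passed the filter only through the GSK-J4 libraries in which they were high. The same held for *Maff* in both comparisons and for *Fosl2* and *Ets1* without AA, while *Elk4* passed only through the DMSO libraries. *Fosl2* and *Ets1* did not pass with AA, so the medians without and with AA cover different genes. *Fos* had an FPKM of 0.702, 3.12, 0.662 and 2.88, with log2 ratios of 1.27 and 1.22. *Fosl1* had 0.401, 5.39, 0.693 and 3.63, with ratios of 2.19 and 1.45, and *Jun* had 2.47, 7.63, 2.28 and 5.94, with ratios of 1.31 and 1.08. Their sizes depended on the pseudocount. With 5, none of the 3 reached 2-fold (0.51 and 0.48 for *Fos*, 0.94 and 0.60 for *Fosl1*, 0.76 and 0.59 for *Jun*), and with 0.1 the ratio of *Fosl1* without AA was 3.45. *Myc*, a growth regulator, had an FPKM of 15.3, 6.49, 12.8 and 5.004, and log2 ratios of -1.12 and -1.20. It stayed below 0 under the 11 settings but was less than 2-fold lower in both comparisons with a pseudocount of 5 (-0.82 and -0.83), the upper quartile (-0.86 and -0.97) and the same total (-0.77 and -0.90). It was also less than 2-fold lower without AA after centring on all genes (-0.94) or on the decile (-0.93), and with AA when 1 row was used (-0.71). *Ccnd1* (cyclin D1), named after its values were seen, had an FPKM of 51.5, 25.5, 41.0 and 18.2 and log2 ratios of -0.99 and -1.13. Over the settings the former ran from -1.01 to -0.52 and the latter from -1.17 to -0.80. Its decile medians were -0.46 and -0.30.

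**Figure D4:**
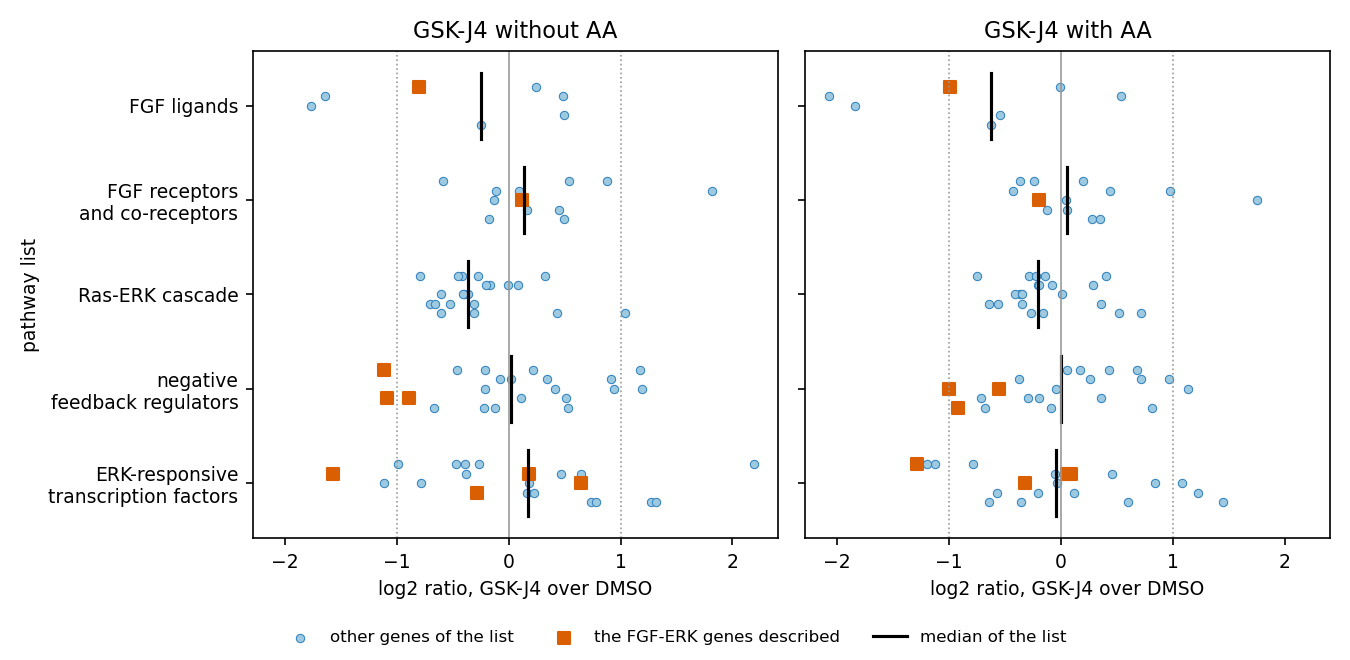
Log2 ratio of GSK-J4 over DMSO for the genes of 5 pathway lists that passed the filter, without AA (left) and with AA (right), with the 9 genes described as squares, the median of each list as a vertical bar and 2-fold as dotted lines; heights within a row carry no value. *Dusp6*, *Spry4* and *Spred1* are the 3 lowest negative feedback regulators without AA, whereas with AA *Pebp1* and *Dusp9* lie below *Spred1*. *Etv1* is the lowest transcription factor in both panels.

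AA without GSK-J4 was described from PBS+DMSO and AA+DMSO, and AA with GSK-J4 from PBS+GSK-J4 and AA+GSK-J4. These libraries stand in separate tables, which may have been normalized separately. In each comparison 1 of the 9 genes changed at least 2-fold, *Etv4*, where 1.30% of 8843 genes did without GSK-J4 and 1.11% of 9180 with it. *Etv4* was 5.22-fold higher in AA+DMSO than in PBS+DMSO and 2.61-fold higher in AA+GSK-J4 than in PBS+GSK-J4, with log2 ratios of 1.69 and 1.09. It was higher with AA under each setting, from 0.82 to 2.28 and from 0.60 to 1.35. The ratios of the other 8 genes lay between -0.25 (*Spred1*) and 0.21 (*Fgfr1*) without GSK-J4, and between -0.15 (*Etv5*) and 0.23 (*Etv1*) with it. The medians of the 9 genes were -0.05 and -0.03, beside -0.05 and -0.02 for all genes. Among the listed pathway genes, those at least 2-fold lower with AA in both comparisons were *Ext2* and *Paqr3*, named after their values were seen. *Ext2*, a polymerase of heparan sulphate, had an FPKM of 7.34, 6.71, 3.06 and 2.03, with log2 ratios of -1.04 and -1.35. *Paqr3*, a Golgi protein that tethers Raf, had an FPKM of 2.40, 3.85, 0 and 1.20.

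The genes whose pattern was most like that of *Dusp6* and *Etv1*, the members at least 2-fold lower in both comparisons, were found from the Euclidean distance over 3 differences in log2(FPKM + 1), each of a library from PBS+DMSO, among genes that reached an FPKM of 5 in any library. For *Dusp6* they were *Rbm3*, *Emg1* and *Hmga1*, at distances of 0.021, 0.023 and 0.034. For *Etv1* they were *Mov10*, *Samd1* and *Bmp4*, at distances of 0.11, 0.13 and 0.14. The points share their libraries, and 4 libraries do not set a pattern apart from others with precision.

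Cell type markers were read in the same libraries. Of 14 ESC markers, *Fgf4* among them, 13 have a value, all at an FPKM of at least 1 in each library. Their summed FPKM was 2508 and 2301 in the DMSO libraries and 1527 and 1384 in the GSK-J4 libraries without and with AA, and ratios were below 0 for 13 of 13 without AA and 12 of 13 with AA. Of all genes, 63.0% and 62.2% had ratios below 0, and most of these markers lie in the higher deciles, where medians were below 0 as well. *Pou5f1*, the defining factor, was at 867, 510, 800 and 480. Of 16 fibroblast markers that feeder cells would express, 8 have a value and none is at 0. Their summed FPKM was 49.2 and 47.3 in the DMSO libraries and 79.1 and 71.7 in the GSK-J4 libraries, with 7 of 8 above 0 in both comparisons. Primitive endoderm markers, 4 of 10 with a value, summed to between 103 and 108, most of it *Sparc*, and trophoblast markers, 4 of 9, to between 18.3 and 25.7. The part of these cell types in the results above was not tested. In bulk RNA, fewer cells of a type and less RNA per cell cannot be told apart.

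Depth is unknown, since the deposited values are not counts. By an estimate from the whole-read steps of weakly expressed genes, AA+DMSO had 0.795 of the depth of PBS+DMSO, and the GSK-J4 libraries had 0.642 without AA and 0.524 with AA. The estimate assumes that FPKM was divided by the mapped fragments of each library. The scaling used is not given, so this assumption was not tested. The GSK-J4 libraries, in which *Etv1*, *Etv4* and *Egr1* were read at an FPKM of 1.94 to 6.07, were the shallower ones by this estimate. The value of 0.642 is the least certain, as the next best fit scored only 4.74% lower.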

How the data were processed

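RNA-Seq was performed on LF2 ESCs in 4 conditions, assigned from the sample titles. The submitters' processing notes name TopHat2 and mm10. From single-end reads, the authors took out duplicates, aligned with TopHat2 and ran Cufflinks2. The FPKM values they deposited stand in columns headed as log10 but hold linear values, in 2 tables of 11033 coding sequence groups. The scaling between libraries is not given in the sources used here. The tables also hold the authors' fold changes, p-values and q-values, which were not used.

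FPKM was summed per gene. Of 9936 gene names, 157 had a failed estimate and were not used. Log2 ratios used a pseudocount of 1, where either library reached an FPKM of 1. The 2-fold threshold is on that scale, while percentages of DMSO and the folds of *Etv4* are plain FPKM ratios. With 1 library per condition, no test was run. Members and lists were chosen with earlier results of these data known. Of each list, genes at least 2-fold changed in the same direction in both GSK-J4 comparisons are named; where fewer than 2 were, also the 2 most highly expressed. Of these, 1 is not reported here. Alternatives were other pseudocounts, filters, scalings, thresholds, 1 row per gene and failed estimates kept. Scripts were tested on simulated data. Python 3.11.15, numpy 2.4.6, pandas 2.3.3 and matplotlib 3.10.9 were used.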

Additional observations from a re-analysis of the deposited data

Results flagged for a closer look

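Opposite signs of the same contrast under the other treatment drew attention to 6 genes. None of these differences was tested, since each ratio rests on 1 library against 1. For GSK-J4, the log2 ratio of *Fgfr1* was 0.11 without AA and -0.19 with AA, and the latter was above 0 under 3 settings (up to 0.12). For AA, *Fgf4* had 0.14 without GSK-J4 and -0.058 with it, and *Fgfr1* had 0.21 and -0.10. Both pairs of *Fgfr1* hold the same difference of -0.31, since they come from the same 4 libraries. *Spry4* had -0.052 without GSK-J4 and 0.15 with it, *Spred1* had -0.25 and 0.093, *Etv1* had -0.059 and 0.23, and *Egr1* had 0.0099 and -0.082. Under other settings, the AA ratio without GSK-J4 changed sign for *Spry4* (up to 0.020) and *Etv1* (up to 0.0083). The repeat SD of a single GSK-J4 ratio was 0.23 over all genes, but 0.098 at the level of *Fgf4* and 0.14 at that of *Fgfr1* and *Spry4*. It was taken from GSK-J4 ratios only, and the AA ratios were not set against it. The AA ratios also compare libraries that may have been normalized separately.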

How the results depend on the processing

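The numbers of genes at least 2-fold lower with GSK-J4, 3 without AA and 2 with AA, depended on the settings. They were 0 and 0 with a pseudocount of 5 (1.48% and 1.12% of all genes) or at 4-fold (0.0652% and 0.0657%), and 5 and 4 at 1.5-fold (19.3% and 17.8%). They were 1 and 1 when ratios were centred on the median of all genes or on the expression decile (the latter chosen after the data were seen), divided by the upper quartile or scaled to the same total. Of all genes, 2.01% and 2.31% were at least 2-fold lower after centring on the decile, and 1.07% to 1.71% under the other 3. At least 2-fold higher without AA were 0 genes, and 1 at 1.5-fold (11.6% over the whole table). Taken over the 9 genes, the median log2 ratio, -0.80 without AA, was -0.52 with the upper quartile, -0.42 with the same total and -0.34 on the expression decile. With AA it was -0.56, and -0.32 and -0.25 with the upper quartile and the same total. The 1 gene changed with AA, *Etv4*, was 0 genes in both comparisons with a pseudocount of 5 (0.0452% and 0.0871% of all genes) or at 4-fold (0.0679% and 0.0654%). For scalings, thresholds and the pseudocount these shifts follow from the construction of the setting. In all, 68 other values of these counts and medians stayed near those reported, and no ratio of the named genes that counted as changed took the opposite sign. No paired analysis was possible because the results come from no test and the titles carry no replicate numbers. The GSK-J4 comparisons without and with AA served as a description of how far ratios repeat. The unknown depth limits *Egr1* and *Etv4* most, whose lowest FPKM values were 1.74 and 1.12.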
